A study of Homo sapiens with 8 samples.

Results

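The ZEB, SNAI and TWIST transcription factors were examined across the 8 arrays through 10 genes, ZEB1, ZEB2, SNAI1, SNAI2, SNAI3, TWIST1, TWIST2, TCF4, TCF3 and PRRX1. All probe sets annotated to 1 of these symbols alone were taken, which gave 40 of the 54613 probe sets that are not controls, and 10 of the 19775 genes on the array that a probe set names alone. ZEB1 had 4 of them, ZEB2 5, TWIST2 2, TCF4 8, TCF3 14 and PRRX1 3, and SNAI1, SNAI2, SNAI3 and TWIST1 had 1 each. Probe sets of 1 gene read the same transcripts or their isoforms and are not replicates of each other.

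These factors drive the epithelial to mesenchymal transition (EMT), in which epithelial cells lose their junctions and become motile. ZEB and SNAI proteins are zinc finger repressors that bind E-boxes in the promoters of epithelial genes and recruit corepressors, while TWIST proteins are basic helix-loop-helix factors that pair with the E proteins encoded by TCF3 and TCF4. ZEB1 and the miR-200 family repress each other, so that a cell can settle in an epithelial or a mesenchymal state.

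The arrays held mesenchymal prostate cancer lines PC3-EMT1, PC3-EMT12 and PC3-EMT14 (3 arrays), set against the epithelial line PC3-Epi (1 array). PC3-Epi is a subpopulation of the bone metastasis line PC3 that carries luciferase, and the EMT lines were isolated from PC3-Epi cells after co-culture with macrophages. Of the EMT lines, 1 and 14 were measured again after lentiviral transduction with an shRNA against ZEB1 (sh4, 2 arrays) or with a scrambled shRNA (Scr, 2 arrays), so the sh4 comparison rests on 1 shRNA in 2 lines. Cells of every group were grown in RPMI with serum. The labels describe no repeat cultures. The spread behind each p-value is that between lines and arrays and may be technical. Untransduced and transduced arrays had been scaled apart, with medians of 4.33 to 4.35 and 6.19 to 6.23 on the log2 scale. Differences were therefore taken only within each set. An alternative fit of sh4 against Scr with 6 arrays took part of its spread from the untransduced PC3-EMT1 and PC3-EMT14 arrays. A probe set was tested where at least 1 array of the comparison lay above the highest bacterial control probe set, at log2 4.56 on untransduced and 6.00 on transduced arrays, and a probe set below that value is described as below the controls. Of 12 macrophage markers, 10 were measured and 1, LAPTM5, entered the test of the EMT lines, where it was not called. The other 9, PTPRC and CD14 among them, lay below the controls on all 4 untransduced arrays. The log2 of the summed linear signal of the list was 7.17 to 7.23 in EMT lines, against 7.08 in PC3-Epi. That sum is made up of LAPTM5 and values below the controls. On the transduced arrays 4 markers were tested and 0 were called (0 at an unadjusted p under 0.05). The log2 of their list's summed signal was 9.03 to 9.07 in sh4 cells, against 8.96 to 9.07 in Scr cells.

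ZEB1 was the member with the clearest difference between the EMT lines and PC3-Epi. The promoter of ZEB1 is shown because ZEB1 is the target of sh4 and had the most probe sets called. It gives the 250 bases before the most upstream RefSeq start (GRCh38.p14, chr10:31318167-31318416, plus strand), with the E-box CAGGTG in capitals, which begins 57 bases before the start and reads CACCTG on the other strand.
ZEB1: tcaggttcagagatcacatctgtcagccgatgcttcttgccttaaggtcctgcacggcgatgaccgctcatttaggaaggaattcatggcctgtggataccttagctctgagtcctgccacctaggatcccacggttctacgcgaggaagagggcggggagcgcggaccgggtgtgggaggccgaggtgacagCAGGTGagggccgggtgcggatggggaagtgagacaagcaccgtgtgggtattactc

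With probe set 212764_at, ZEB1 measured log2 6.81 in PC3-EMT1, 7.11 in PC3-EMT12 and 6.50 in PC3-EMT14, against 3.08 in PC3-Epi. With 212758_s_at it measured 6.64, 6.74 and 6.50 in the same EMT lines, against 4.26 in PC3-Epi. On both probe sets every EMT line lay above the controls and PC3-Epi lay below them. Of all probe sets tested, 43.3% were likewise higher in every EMT line than on the single PC3-Epi array. EMT lines averaged 6.81 ± 0.31 (SD, n = 3) with 212764_at, a difference from the single PC3-Epi array of 3.73 ± 0.25 on the log2 scale (SE, limma adjusted p = 0.000578). With 212758_s_at the difference was 2.36 ± 0.16 (adjusted p = 0.000687). Since PC3-Epi was below the controls, these differences are given as bounds set at the control level, and ZEB1 was at least 4.75-fold higher in EMT lines with 212764_at and at least 4.17-fold higher with 212758_s_at. Probe sets 239952_at and 210875_s_at were below the controls on all 4 arrays.

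In the knockdown, ZEB1 was the targeted gene. The 3 of its probe sets that could be tested were lower with sh4 in both lines, as were 32.4% of all probe sets tested. The fourth, 239952_at, lay below the controls on all 4 transduced arrays. Probe set 212764_at measured 9.12 in sh4 PC3-EMT1 cells and 9.01 in sh4 PC3-EMT14 cells, against 9.87 and 10.08 in Scr cells of these lines. Probe set 212758_s_at measured 8.08 and 8.00 in sh4 cells, against 8.77 and 9.04 in Scr cells. Both sh4 arrays lay below both Scr arrays, and all 4 lay well above the controls. The mean differences were -0.91 ± 0.14 and -0.87 ± 0.14 (SE, 2 lines), so that ZEB1 signal in sh4 cells was 0.533 and 0.547 times that in Scr cells. Probe set 210875_s_at measured 5.01 and 4.32 in sh4 cells, against 5.82 and 6.39 in Scr cells, and entered the test through the PC3-EMT14 Scr array, the 1 array above the controls, so that it gives at least 1.07-fold lower signal in sh4 cells. None of the 3 ZEB1 probe sets tested passed the adjustment (limma adjusted p = 0.244, 0.253 and 0.28), and none was called with 6 arrays of both sets and the line as a block (adjusted p = 0.0551, 0.0525 and 0.074).

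**Figure D1:**
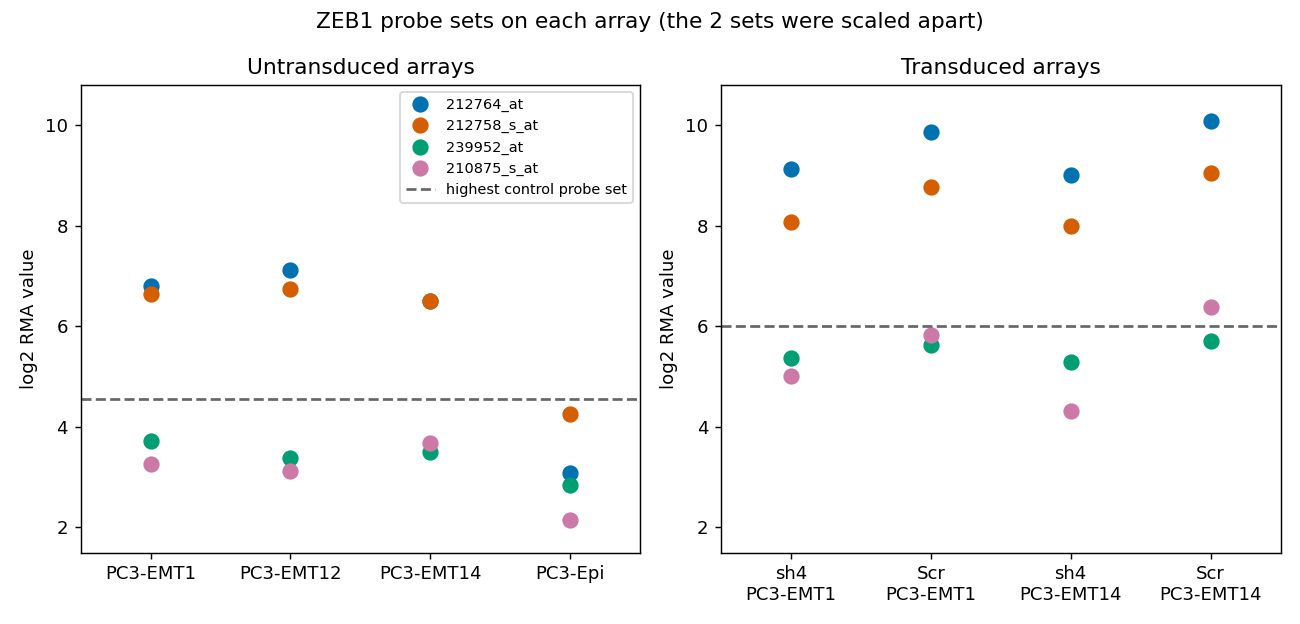
Log2 RMA values of the 4 ZEB1 probe sets on the untransduced arrays (left, EMT lines and PC3-Epi) and the transduced arrays (right, sh4 and Scr of 2 lines), each point 1 array, with the highest bacterial control probe set as a dashed line. Probe sets 212764_at and 212758_s_at lie at 6.50 to 7.11 in EMT lines and at or below 4.26 in PC3-Epi, and sh4 points lie below the Scr points of their line.

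ZEB2, the second ZEB repressor, was not detected in any group. Its 5 probe sets lay at log2 2.05 to 2.83 on the untransduced arrays and at 2.99 to 4.75 on the transduced arrays, all below the controls. The differences of EMT lines from PC3-Epi ranged from -0.10 to 0.21, and those of sh4 from Scr from -0.11 to 0.31. At these signals a difference in ZEB2 could not be measured.

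SNAI1, the Snail repressor of CDH1, did not rise clearly above the control level of 4.5628 on any untransduced array, so that a difference could not be measured. It measured 4.5617 in PC3-EMT1, 4.4644 in PC3-EMT12 and 4.5528 in PC3-EMT14, all below the controls, against 4.5646 in PC3-Epi, just above them. It was not called (adjusted p = 0.865). On the transduced arrays SNAI1 was above the controls in every sample, at 6.34 and 6.53 in sh4 cells of PC3-EMT1 and PC3-EMT14, against 6.32 and 6.63 in Scr cells. The control level there, 6.00, lay below the array medians of 6.19 to 6.23. Lying above it does not by itself show that SNAI1 was expressed.

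SNAI2, which encodes Slug, was well above the controls in epithelial and mesenchymal cells alike. It measured 7.64, 7.25 and 7.73 in the EMT lines 1, 12 and 14, against 7.64 in PC3-Epi, so that PC3-Epi lay inside the range of the EMT lines (difference -0.11 ± 0.22, adjusted p = 0.747). In sh4 cells it measured 8.33 in PC3-EMT1 and 8.10 in PC3-EMT14, against 7.81 and 8.21 in Scr cells, with opposite signs in the 2 lines. SNAI3 lay below the controls on all 8 arrays.

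TWIST1, a basic helix-loop-helix factor of mesoderm, was also measured in every group. It stood at 7.13, 7.00 and 7.12 in the EMT lines 1, 12 and 14, against 6.76 in PC3-Epi. Each EMT line was above PC3-Epi, but the difference of 0.33 ± 0.15 did not pass the test (adjusted p = 0.161). In sh4 cells TWIST1 measured 8.35 in PC3-EMT1 and 7.97 in PC3-EMT14, against 8.06 and 7.55 in Scr cells. Its 1 probe set was higher with sh4 in both lines, by 0.28 and 0.41, as were 30.8% of all probe sets tested. The difference was not called (0.35 ± 0.12, adjusted p = 0.33). TWIST2 (2 probe sets) and PRRX1 (3 probe sets), a homeobox factor of mesenchyme, lay below the controls on all 8 arrays.

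TCF4, which encodes the E protein E2-2, was higher in all 3 EMT lines on the 7 of its 8 probe sets tested. Mean differences were 0.25 to 0.78, and 43.3% of all probe sets tested were higher in all 3 lines. The eighth, 228837_at, lay below the controls on all 4 untransduced arrays. Probe set 222146_s_at measured 5.29 in PC3-EMT1, 5.14 in PC3-EMT12 and 5.24 in PC3-EMT14, against 4.44 in PC3-Epi, which was below the controls. This was the 1 TCF4 probe set that passed the test (0.78 ± 0.15, adjusted p = 0.0172), at least 1.58-fold higher in EMT lines. The brightest probe set, 212386_at, measured 7.45, 7.57 and 7.55 in EMT lines, against 7.09 in PC3-Epi, and did not pass (0.43 ± 0.15, adjusted p = 0.084). Without PC3-EMT14 the call of 222146_s_at was lost (adjusted p = 0.0669).

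With sh4, 7 of the 8 TCF4 probe sets were lower in both lines, with mean differences of -0.53 to -0.33. Of all probe sets tested, 32.4% were lower in both lines. Probe set 213891_s_at measured 8.25 in sh4 PC3-EMT1 cells and 8.71 in sh4 PC3-EMT14 cells, against 8.76 and 9.27 in Scr cells. On this probe set, the TCF4 one with the largest difference, both sh4 arrays lay below both Scr arrays, as on 3 of these 7. On 4 of them the levels of sh4 and Scr cells overlapped between the lines. The share of all probe sets without such overlap was not counted. The mean difference on 213891_s_at was -0.53 ± 0.11 (SE, 2 lines, limma adjusted p = 0.274). Probe set 228837_at had 1 array above the controls, and its difference was 0.27 in PC3-EMT1 and -0.68 in PC3-EMT14. No TCF4 probe set was called with sh4, either in the 4 arrays or with 6 arrays (adjusted p of 0.157 to 0.697 with 6).

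TCF3, which encodes the E proteins E12 and E47 and represses CDH1 in its E47 form, had 14 probe sets that did not move alike. Probe set 202648_at measured 6.81, 6.61 and 6.59 in the EMT lines 1, 12 and 14, against 6.01 in PC3-Epi, and passed the test (0.66 ± 0.16, adjusted p = 0.0346). All 3 EMT lines lay above the single PC3-Epi array on this probe set, as on 43.3% of all probe sets tested. The call was lost without PC3-EMT1 (adjusted p = 0.0561) and without PC3-EMT14 (adjusted p = 0.0929). The other 12 probe sets tested differed by -0.08 to 0.41 and were not called. Probe set 213811_x_at, for example, measured 9.08, 9.02 and 9.06 in EMT lines, against 8.88 in PC3-Epi (adjusted p = 0.398). With sh4, 8 of the 14 probe sets were higher in both lines and 3 were lower in both, with mean differences of -0.26 to 0.40. Among the 8 was 213732_at, which lay below the controls on all 4 transduced arrays and was not tested. Of all probe sets tested, 30.8% were higher in both lines and 32.4% lower.

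**Figure D2:**
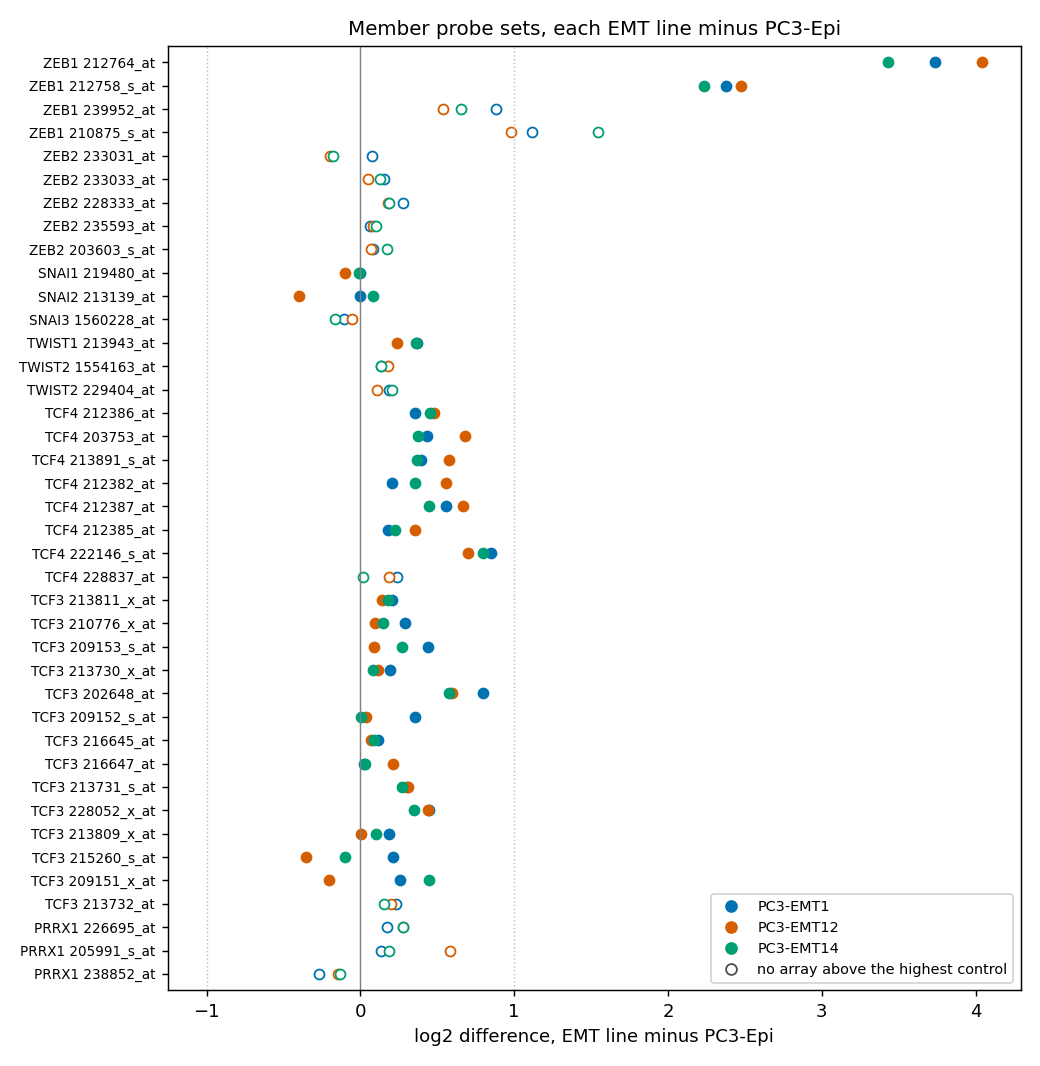
Log2 difference of each EMT line from PC3-Epi for all 40 probe sets of the 10 genes, 1 point per line, with open points where no array lay above the highest control and dotted lines at a 2-fold difference. Of the probe sets with filled points, only ZEB1 212764_at and 212758_s_at lie beyond 2-fold in every line.

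Over the comparison of EMT lines with PC3-Epi, 25 of the 40 member probe sets were tested, and 4 were called higher (2 of ZEB1, 1 each of TCF4 and TCF3) and 0 lower. Over all 27734 probe sets tested, limma called 24.5%, with 9.89% higher and 14.6% lower. A 2-fold rise in every EMT line was seen for 2 member probe sets, both of ZEB1, and for 2.02% of all probe sets tested, and a 2-fold fall for 0, against 4.71% (6.73% in either direction). At an unadjusted p under 0.05, 9 of the 25 were counted, against 40.5% of all. Of the 25, 21 were higher in all 3 EMT lines, against 43.3% of all probe sets tested, but 20 of the 25 belong to TCF4 and TCF3 and share targets. The 1 member probe set lower in all 3 EMT lines was that of SNAI1, against 37% of all, and it entered the test through PC3-Epi alone, as the EMT lines were below the controls. The ZEB1 probe sets and TCF4 222146_s_at entered it through the EMT lines alone. The median difference was 0.27 for the members tested and 0.05 for all probe sets tested.

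Over the comparison of sh4 with Scr, 27 member probe sets were tested and limma called 0, as it called 0% of the 31363 probe sets tested. At an unadjusted p under 0.05, 13 member probe sets were counted (3 of ZEB1, 7 of TCF4, 2 of TCF3 and that of TWIST1), among them ZEB1 210875_s_at with 1 array above the controls, against 14.4% of all probe sets. With 6 arrays of both sets and the line as a block, 228 probe sets were called (0.727%) and 0 of them were members. The spread in that fit came partly from arrays scaled apart. In both lines 8 member probe sets were higher and 13 lower, against 30.8% and 32.4% of all probe sets. No member probe set tested was 2-fold lower or higher in both lines, against 0.367% of all probe sets. Of the 25 member probe sets tested in both comparisons, 11 were higher in all 3 EMT lines and lower with sh4 in both lines (2 of ZEB1, 7 of TCF4 and 2 of TCF3), against 15.8% of all 26601.

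**Figure D3:**
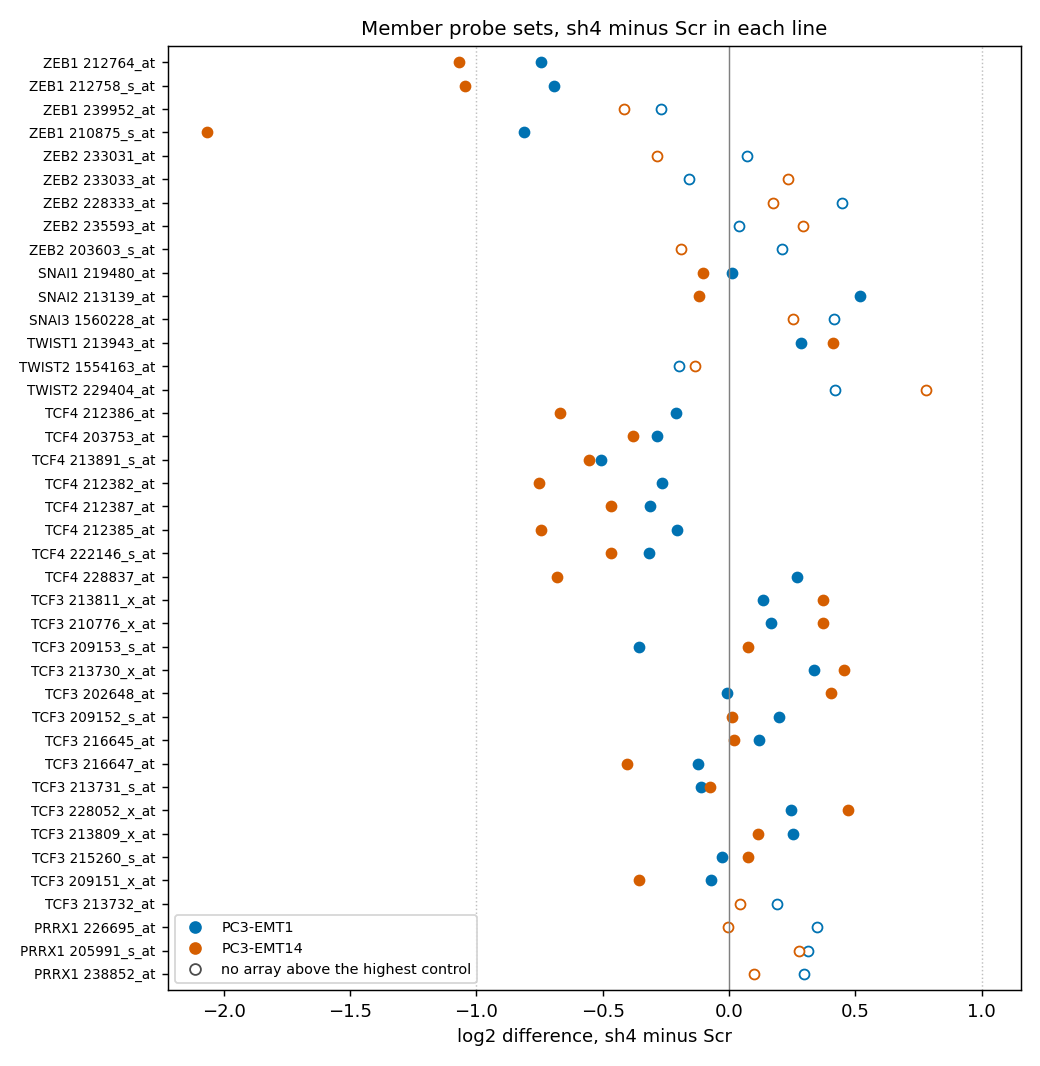
Log2 difference of sh4 from Scr in PC3-EMT1 and PC3-EMT14 for all 40 probe sets, 1 point per line, with open points where no array lay above the highest control and dotted lines at a 2-fold difference. The ZEB1 probe sets and 7 of 8 TCF4 probe sets lie below 0 in both lines, TWIST1 lies above 0 in both, and no probe set with filled points lies beyond 2-fold in both.

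Epithelial genes listed as repressed by these factors were lower in the EMT lines. Of 21 such genes 20 were measured and tested by their brightest probe set, 15 were called lower and 0 higher (against 14.6% and 9.89% of all probe sets), with a median difference of -2.76, against 0.05 over all probe sets tested. The list was chosen with earlier results of these data known, and includes OVOL2, a gene that the study singled out from these same arrays. Its counts are therefore not independent evidence of a direction. CDH1, the adhesion molecule E-cadherin, measured 3.07, 3.61 and 4.00 in the EMT lines 1, 12 and 14, against 11.31 in PC3-Epi, and was at least 107-fold lower in EMT lines (adjusted p = 0.000156). ESRP1, an epithelial splicing regulator, was at least 96.2-fold lower (adjusted p = 6.78e-05), RAB25, a GTPase of apical recycling, at least 29.6-fold lower (adjusted p = 6.78e-05), and OVOL2, a zinc finger repressor of ZEB1, at least 18.9-fold lower (adjusted p = 0.000107). The EMT lines were below the controls for these 4 genes and for GRHL2, which was also called lower. All of these entered the test through PC3-Epi alone, so a call could only be lower. CLDN1, CLDN3, CLDN4, MUC1 and KRT18 did not pass the test, with differences of -0.48 to 0.27. In EMT lines the second probe set of CDH1 differed by -1.64, that of ESRP1 by -7.10 and that of OVOL2 by 0.10.

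With sh4 the same list had a median difference of 0.83 over the 18 genes tested (-0.006 over all probe sets tested), 5 genes were 2-fold higher in both lines (against 0.226% of all probe sets), of which OVOL2 was below the controls in Scr cells and at least 1.34-fold higher, and 13 of the 18 had an unadjusted p under 0.05. CDH1 measured 9.63 in sh4 PC3-EMT1 cells and 9.75 in sh4 PC3-EMT14 cells, against 5.61 and 5.89 in Scr cells, which were below the controls. It was at least 12.9-fold higher with sh4, with an adjusted p of 0.0664 in the 4 arrays and 0.00107 with 6 arrays. The fit with 6 arrays took part of its spread from arrays that had been scaled apart. ESRP1 measured 8.02 and 9.16 in sh4 cells, against 4.51 and 5.05 in Scr cells, which were below the controls. It was at least 6.01-fold higher with sh4, with adjusted p values of 0.0921 and 0.00107 in these fits. RAB25 stayed below the controls in sh4 and Scr cells of both lines. CDH1, ESRP1 and OVOL2 entered the sh4 test through the sh4 arrays alone. Their second probe sets differed with sh4 by 0.04 for CDH1, 2.11 for ESRP1 and 0.29 for OVOL2. With the mean of its probe sets CDH1 differed by 1.99 with sh4 (limma adjusted p = 0.0243). The ZEB1 signal of the same sh4 arrays was 0.533 times that of Scr with 212764_at.

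**Figure D4:**
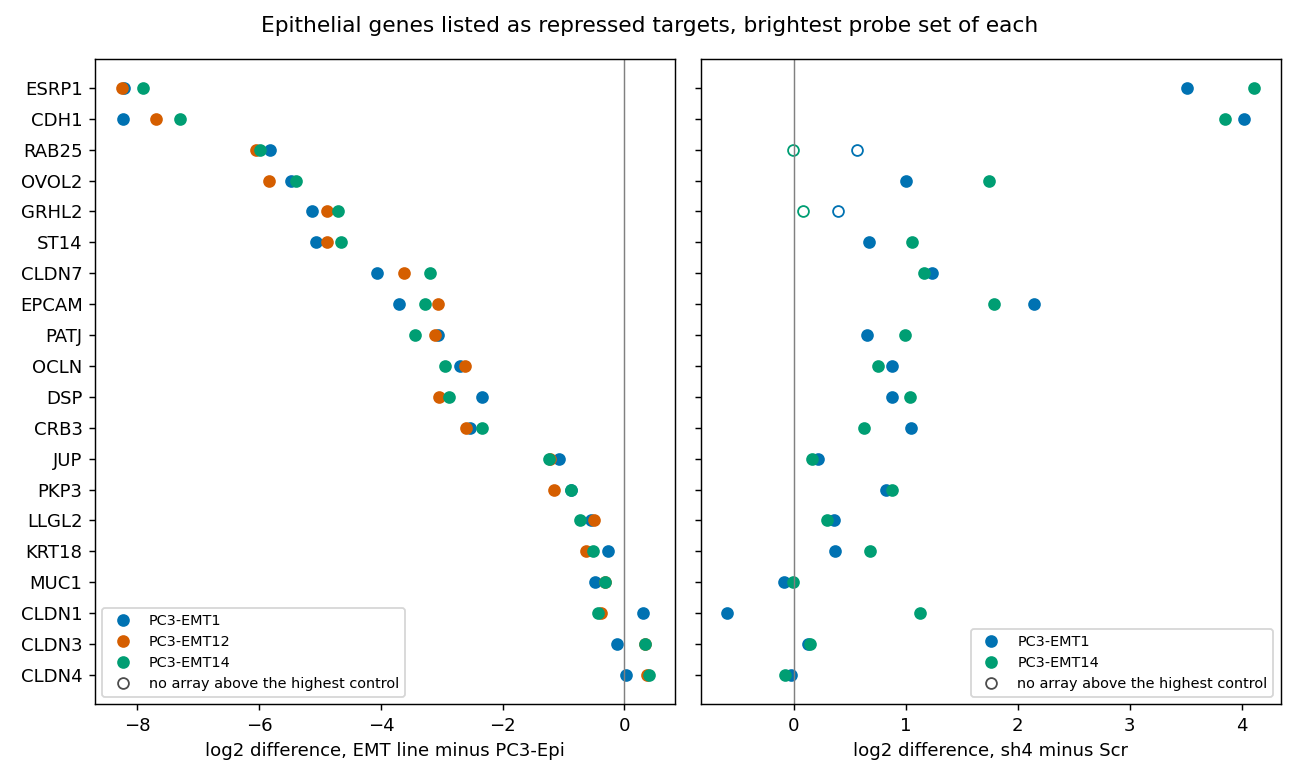
Log2 differences of 20 epithelial genes listed as repressed targets, each EMT line minus PC3-Epi (left) and sh4 minus Scr in 2 lines (right), 1 point per line, with open points where no array lay above the highest control. ESRP1 and CDH1 lie lowest on the left and highest on the right, and CLDN3, CLDN4 and MUC1 lie near 0 on both sides.

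The E-box CACCTG, on either strand, was counted in the 250 bases before the most upstream RefSeq start of each gene. It was present for 4789 of all 27305 genes with a promoter sequence (17.5%), and the general E-box CANNTG, of which CACCTG is 1 form, for 62.2%. Of the 10 members 6 had a sequence, and ZEB1 alone held CACCTG. Of the repressed targets 11 had a sequence and 6 held it (CRB3, PATJ, OCLN, MUC1, RAB25 and DSP), while 7 (63.6%) held CANNTG, and of the mesenchymal genes 10 had a sequence, 0 held CACCTG and 3 held CANNTG. A match describes the letters only. Promoters of 3 of these genes are shown, chosen after their values were seen, because they hold the motif 2 or more times and differ in response. CACCTG and its reverse complement CAGGTG are in capitals, and other forms of CANNTG are not (GRCh38.p14, CRB3 at chr19:6464021-6464270 and PATJ at chr1:61742230-61742479 on the plus strand, MUC1 at chr1:155192916-155193165 on the minus strand).
CRB3: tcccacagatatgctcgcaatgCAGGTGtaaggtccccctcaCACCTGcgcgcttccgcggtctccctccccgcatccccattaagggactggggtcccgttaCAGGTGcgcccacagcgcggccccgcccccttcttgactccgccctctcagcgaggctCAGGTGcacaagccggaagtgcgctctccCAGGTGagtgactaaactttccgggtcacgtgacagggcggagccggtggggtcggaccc
PATJ: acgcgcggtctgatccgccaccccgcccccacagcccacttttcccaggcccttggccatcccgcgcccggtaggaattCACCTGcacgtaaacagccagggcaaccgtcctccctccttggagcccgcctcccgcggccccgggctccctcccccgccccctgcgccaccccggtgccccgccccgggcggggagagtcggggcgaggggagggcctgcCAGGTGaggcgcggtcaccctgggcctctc
MUC1: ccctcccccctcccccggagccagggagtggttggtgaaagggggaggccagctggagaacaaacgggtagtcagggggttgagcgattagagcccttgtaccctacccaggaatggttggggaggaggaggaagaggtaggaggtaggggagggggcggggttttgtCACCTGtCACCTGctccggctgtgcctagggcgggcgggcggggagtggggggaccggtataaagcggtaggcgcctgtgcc
CRB3 and PATJ encode parts of the Crumbs polarity complex. CRB3 held the motif 5 times, and it measured 5.52, 5.45 and 5.71 in the EMT lines 1, 12 and 14, against 8.05 in PC3-Epi (difference -2.49 ± 0.17, adjusted p = 0.000625), and 8.56 and 8.14 in sh4 cells, against 7.52 and 7.51 in Scr cells (0.84 ± 0.15, adjusted p = 0.26). PATJ held it 2 times, and it measured 4.89, 4.83 and 4.51 in EMT lines, against 7.95 in PC3-Epi (-3.21 ± 0.20, adjusted p = 0.000467). In sh4 cells PATJ measured 7.39 and 7.87, against 6.73 and 6.87 in Scr cells (0.825 ± 0.14, adjusted p = 0.256). MUC1, a membrane mucin, also held it 2 times and differed by -0.37 ± 0.16 in EMT lines (adjusted p = 0.131) and by -0.04 ± 0.12 with sh4 (adjusted p = 0.881). For CRB3 and PATJ all 3 EMT lines lay below the single PC3-Epi array, as did 37% of all probe sets tested. MUC1 was not called in EMT lines by its brightest probe set, and was called lower there with the mean of its probe sets (-0.89, adjusted p = 0.00664). With sh4 none of CRB3, PATJ and MUC1 was called.

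Mesenchymal genes were mostly higher in the EMT lines, in a list that was likewise chosen with earlier results of these data known. Of 12 listed genes 11 were tested, 8 were called higher and 1 lower (against 9.89% and 14.6% of all probe sets), with a median difference of 0.89. COL5A1, ACTA2 and SPARC, all called higher, entered the test through the EMT lines alone, as PC3-Epi was below the controls. COL5A1 was at least 1.99-fold higher in EMT lines and ACTA2 at least 1.80-fold. Without PC3-EMT14 the calls of CDH2, COL5A1 and ITGA5 were lost (adjusted p = 0.0746, 0.0536 and 0.0579). FBN1, a fibrillin of the matrix, was 16.4-fold higher (4.03 ± 0.16, adjusted p = 0.00011), COL6A2, a collagen VI chain, 4.07-fold (2.02 ± 0.19, adjusted p = 0.00186) and VIM, the intermediate filament vimentin, 3.76-fold (1.91 ± 0.15, adjusted p = 0.000983). SPARC, a matrix glycoprotein, was below the controls in PC3-Epi and at least 2.71-fold higher in EMT lines (adjusted p = 0.0465). The second VIM probe set differed by -0.05. Those of COL6A2 and SPARC differed by 1.47 and 1.07, and other FBN1 probe sets by 1.13 to 3.26. The 1 gene called lower was CALD1, the actin-binding caldesmon, at -1.70 ± 0.24 (adjusted p = 0.0066), chosen after its value was seen. With sh4, SPARC was the 1 listed gene 2-fold lower in both lines, at 6.61 and 5.33 in sh4 cells, against 8.69 and 7.23 in Scr cells (-1.99 ± 0.12, adjusted p = 0.128).

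Between the EMT lines and PC3-Epi, the partners and regulators of the factors, by their brightest probe sets, differed less than ZEB1 itself. Of 15 corepressor genes, 1 was called higher (PRMT5, an arginine methyltransferase, 0.57 ± 0.16, adjusted p = 0.0485) and 1 lower (EZH2, the histone methyltransferase of PRC2, -0.57 ± 0.16, adjusted p = 0.047). CTBP1 and CTBP2, the corepressors that ZEB1 binds, differed by 0.10 and -0.12 and were not called. Of 4 coactivator genes tested, KAT2B, the acetyltransferase PCAF, was called higher (1.15 ± 0.18, adjusted p = 0.00928). Of 4 genes of E protein partners and ID inhibitors tested, TCF12, the E protein HEB, was called lower, at 7.20, 7.47 and 7.18 in EMT lines, against 8.36 in PC3-Epi (-1.07 ± 0.18, adjusted p = 0.0111). All 3 EMT lines lay below PC3-Epi for TCF12 and above it for TCF4. ID2, an inhibitor that binds E proteins, was chosen after its values were seen and measured 9.18 and 8.68 in sh4 cells, against 10.05 and 10.22 in Scr cells (-1.21 ± 0.20, adjusted p = 0.253).

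Among 10 tested genes that act on the stability or activity of the factors, PRKD1, a kinase that phosphorylates Snail, was called higher. It measured 5.47, 5.68 and 5.79 in EMT lines, against 3.49 in PC3-Epi, at least 2.11-fold (adjusted p = 0.00127). With sh4 it measured 7.57 and 7.56, against 7.97 and 7.91 in Scr cells (-0.37 ± 0.11, adjusted p = 0.316). Of 7 other EMT transcription factors tested, 3 were called lower and 0 higher. FOXQ1, a forkhead factor, measured 7.13, 6.89 and 7.14 in EMT lines, against 10.46 in PC3-Epi (-3.41 ± 0.17, adjusted p = 0.000226), and SOX4 and HMGA2 differed by -0.88 and -0.85 (adjusted p = 0.0158 and 0.0152). With the mean of its probe sets HMGA2 differed by -0.28 and was not called (adjusted p = 0.167). With sh4, 0 genes of these 5 lists were called in the 4 arrays. At an unadjusted p under 0.05 there were 3 of 15 corepressors, 3 of 4 coactivators, 1 of 5 E protein partners and ID inhibitors, 2 of 10 stability regulators and 1 of 8 other EMT factors tested, against 14.4% of all probe sets. The median differences of EMT lines from PC3-Epi over the genes tested were 0.07, -0.17, 0.43, -0.26 and -0.60 for these lists in the same order. Without PC3-EMT14, PRMT5, EZH2, SOX4 and HMGA2 were no longer called (adjusted p = 0.154, 0.145, 0.054 and 0.0571), and without PC3-EMT1, PRMT5 and EZH2 were not (0.0854 and 0.0821). PRMT5 also lost its call without a filter, with cyclic loess, with median centring and with quantile normalization (adjusted p = 0.061, 0.0672, 0.0506 and 0.0504), and EZH2 without a filter and with quantile normalization (0.0588 and 0.0507).

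The mature miRNAs that target ZEB1 were not measured on these arrays, but the host transcript of miR-205 and that of miR-200c and miR-141 were, and these 2 transcripts were chosen after their values were seen. The sequences below, from RefSeq (GRCh38.p14), have the seed, bases 2 to 8, in capitals, and are shown because they fall into 3 seed groups, shared by miR-200b with miR-200c and by miR-200a with miR-141, with miR-205 apart.
hsa-miR-200b-3p: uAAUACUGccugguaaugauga
hsa-miR-200c-3p: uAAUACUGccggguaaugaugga
hsa-miR-200a-3p: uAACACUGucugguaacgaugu
hsa-miR-141-3p: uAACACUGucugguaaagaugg
hsa-miR-205-5p: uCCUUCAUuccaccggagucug
MIR205HG, the host transcript of miR-205, measured 2.72, 2.96 and 2.47 in the EMT lines 1, 12 and 14, against 5.70 in PC3-Epi, and was at least 2.20-fold lower in EMT lines (adjusted p = 0.000796). The EMT lines were below the controls, so MIR205HG entered the test through PC3-Epi alone. It lay below the controls on all 4 transduced arrays. MIR200CHG, the host transcript of miR-200c and miR-141, measured 4.48, 4.32 and 4.81 in EMT lines, against 4.62 in PC3-Epi. It was not called (adjusted p = 0.793). PC3-EMT1 and PC3-EMT12 lay below the controls and PC3-Epi little above them, so the missing call does not show an unchanged level. In sh4 cells it measured 6.58 in PC3-EMT1 and 6.11 in PC3-EMT14, against 5.83 and 6.25 in Scr cells. These differences had opposite signs (0.75 and -0.15) and were not called (adjusted p = 0.592).

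The genes whose differences lay nearest to those of ZEB1 212764_at were found over the 5 within-set differences (3 EMT lines minus PC3-Epi and 2 sh4 minus Scr), by mean absolute difference in log2. KDR, a receptor of vascular endothelial growth factor, was nearest at 0.28, followed by FBN1, NAP1L3, NOVA1 and CRACD up to 0.32. KDR measured 7.66, 8.62 and 7.81 in EMT lines, against 3.98 in PC3-Epi, and 8.68 and 8.50 in sh4 cells, against 9.43 and 9.93 in Scr cells. With the sign turned, RBM47, an RNA-binding protein, was nearest at 0.15, followed by ANKRD22, INPP4B, PPP1R14C and VCAN up to 0.24. RBM47 measured 5.76, 5.82 and 6.07 in EMT lines, against 9.49 in PC3-Epi, and 7.70 and 8.22 in sh4 cells, against 7.10 and 7.40 in Scr cells. ZEB1, KDR, NOVA1 and CRACD were below the controls in PC3-Epi, and INPP4B, PPP1R14C and VCAN in the EMT lines, so these differences and their order rest in part on background values. The 5 differences also share the PC3-Epi array and the 2 lines, and likeness over them is a description.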

How the data were processed

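RNA of 8 samples was hybridised to Affymetrix U133 Plus 2.0 arrays, 1 array a sample, and the authors deposited log2 values made by RMA with the affy package (per the labels; versions are not given in the sources used here). RMA estimates the arrays of a set jointly, and 57 of the 31363 probe sets tested for sh4 had the same difference in both lines (within 1e-06 on the log2 scale). Of 54675 probe sets, 62 controls were left out of the tests, 41091 had 1 gene symbol, 1801 several and 11721 none.

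Probe sets were fitted with limma 3.58.1 in R 4.3.3 (lmFit, eBayes, Benjamini-Hochberg over all probe sets tested, threshold 0.05), a probe set being tested where at least 1 array lay above the highest of 27 B. subtilis control probe sets. EMT lines and PC3-Epi were fitted by group over 4 arrays (2 residual and 4.30 prior degrees of freedom), the lone PC3-Epi array being assumed to vary like the EMT lines. Arrays with sh4 and Scr were fitted by group with the cell line as a block (1 residual and 3.31 prior degrees of freedom). The pairing comes from the shared cell line, and same-line arrays deviated together (r = 0.435, a value that 2 lines share by construction). Fold bounds use the highest control value. The fits were tested on simulated data.

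The members and lists were chosen with earlier results of these data known. Named were all members, up to 4 genes of each of 8 lists with the largest difference among those called, and the 5 genes nearest to ZEB1 in each direction. CDH1, RAB25 and OVOL2 fall under this rule, whereas CRB3, PATJ, MUC1, the claudins, KRT18, CTBP1, CTBP2, CDH2, COL5A1, ACTA2, ITGA5, ID2, CALD1 and the miRNA hosts were named after their values were seen. A few list genes were not analysed here. Alternatives changed the filter, the scaling, the offset, the probe set rule, the eBayes options, the fold limit and the arrays fitted.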

Additional observations from a re-analysis of the deposited data

Results flagged for a closer look

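Between the 2 lines, sh4 minus Scr had opposite signs for 6 member probe sets tested, and the difference between the lines was not tested. For SNAI2 213139_at, sh4 minus Scr was 0.52 in PC3-EMT1 and -0.12 in PC3-EMT14, so that PC3-EMT1 less PC3-EMT14 came to 0.636 on the log2 scale. For SNAI1 219480_at it came to 0.113 (0.01 and -0.10). TCF4 228837_at, with 1 of 4 arrays above the controls, was furthest apart at 0.95 (0.27 and -0.68). For TCF3 the values were -0.434 with 209153_s_at (-0.36 and 0.08), -0.412 with 202648_at (-0.01 and 0.40) and -0.104 with 215260_s_at (-0.03 and 0.08).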

How the results depend on the processing

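The ZEB1 calls in EMT lines held under every alternative run, with differences of 1.84 to 3.89 for 212764_at (highest adjusted p = 0.00351) and 1.35 to 2.42 for 212758_s_at (0.00271), and ZEB1 stayed lower with sh4 under all, without a call. The TCF4 probe sets tested also kept their signs in both comparisons, and 212387_at was called in EMT lines with the filter at log2 5 (adjusted p = 0.0488) and with quantile normalization (0.0429). CDH1 passed with sh4 in 9 of 12 alternatives with a test. The SPARC call in EMT lines was lost without a filter, with cyclic loess and with 32 added (adjusted p = 0.0605, 0.0511 and 0.129). The count of probe sets called in EMT lines, 6787, was 3560 with the brightest and 3361 with the mean probe set of each gene, which test fewer features, and ranged from 3219 to 9029 when 1 EMT line was left out (3219 without PC3-EMT14). The member probe sets called, 4, fell to 1 under both gene rules and ranged from 2 to 4 without 1 line. For sh4, the 0 calls became 10 with cyclic loess, 47 with median centring, 34 with quantile normalization of 8 arrays, 4 with 32 added, 4 with the brightest and 27 with the mean probe set, 2 with an eBayes trend, 1 with no replicate block and 228 with 6 arrays and the replicate block, but 0 members were called in any of these; the cause was not tested. The limit of 2-fold gave 1866 probe sets in EMT lines, against 5134 at 1.5-fold and 680 at 3-fold, and for sh4 115, against 608 and 30. Signs turned for values near 0 only: when 1 EMT line was left out, SNAI2 ranged from -0.1997 to 0.0415 and TCF3 215260_s_at from -0.2264 to 0.0566 in EMT lines, both highest without PC3-EMT12, TCF3 215260_s_at with sh4 became -0.0001 with median centring, and with the mean of probe sets CLDN3 became -0.10 and CLDN4 0.11 with sh4. With 1 PC3-Epi array and 2 lines with sh4, the number of arrays limits precision, and probe sets below the controls, SNAI1 in EMT lines, ZEB2, SNAI3, TWIST2 and PRRX1 among them, cannot show a difference.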
